A study of Mus musculus with 6 samples.

Results

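Astrocyte genes were examined in mouse tissue that the labels call hypothalamic paraventricular nucleus. The mice were wild type (WT) or carried a knockout, in glutamatergic neurons, of Adam17 (KO), which encodes a protease that cuts membrane-bound cytokines and growth factors loose. The genes were given by symbol as a list of 33, all of which were found among the 51826 genes of the deposited table. They comprise 23 genes listed for astrocyte identity (identity genes) and 10 that are known to be induced when astrocytes react to injury or inflammation (reactive genes). All 33 were among the 18956 genes tested, and the smallest count of a member in any library was 19, for Steap4. Each genotype has 3 libraries, 2 from male mice (replicates 1 and 2) and 1 from a female mouse (replicate F1). The labels give the genotype in these words only: the sources used here do not give the promoter that drove the deletion, the strain, the age or any treatment. The deletion is labelled as one of glutamatergic neurons, so the astrocytes measured here are not the cells it was aimed at. The labels do not say whether replicates came from separate animals, so p-values measure the spread between these libraries, which may be technical. In bulk tissue, fewer astrocytes, less RNA per astrocyte and RNA of the same genes from other cells cannot be told apart.

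Astrocytes enclose synapses and blood vessels with fine processes. They clear potassium, glutamate and water through channels and transporters, are coupled to each other by gap junctions, and supply lipoproteins and lactate to neurons. When neighbouring tissue is inflamed or injured, cytokines of the interleukin-6 family act on astrocyte receptors and activate the transcription factor STAT3, and the cells raise filament proteins such as GFAP, surface proteins such as CD44 and secreted acute-phase proteins such as SERPINA3N. Metallothioneins, small proteins that bind zinc and copper, are induced through metal response elements in their promoters. In the paraventricular nucleus, astrocytes surround the neurons that make vasopressin and oxytocin and the presympathetic neurons that control blood pressure.

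Promoter sequences are shown for 2 pairs of members whose values are compared in the results. Mt1 and Mt2 lie next to each other on chromosome 8, with 5514 bases from the end of Mt2 to the start of Mt1, and in the KO males Mt1 lay above every WT value and Mt2 below, while in the KO female both lay above. For Gfap and Serpina3n the female lay above the males in WT and below them in KO. The sequences are the 250 bases before each annotated start in RefSeq's tables for GRCm38.p6, 5′ to 3′ on the gene's strand, at chr8:94178839-94179088 (plus strand) for Mt1, chr8:94172368-94172617 (plus strand) for Mt2, chr11:102897201-102897450 (minus strand) for Gfap and chr12:104406458-104406707 (plus strand) for Serpina3n. Capitals mark matches on either strand to TGCNCNC, a loosened form of the metal response element core, in Mt1 and Mt2. They would mark matches to the STAT element TTCNNNGAA in Gfap and Serpina3n. The usual core has A or G where the first N stands, so not every match is such a core.
Mt1: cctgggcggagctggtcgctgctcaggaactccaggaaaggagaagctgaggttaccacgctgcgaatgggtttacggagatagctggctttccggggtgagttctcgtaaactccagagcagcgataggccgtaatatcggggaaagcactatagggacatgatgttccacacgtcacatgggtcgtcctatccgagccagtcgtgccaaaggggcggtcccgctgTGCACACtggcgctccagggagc
Mt2: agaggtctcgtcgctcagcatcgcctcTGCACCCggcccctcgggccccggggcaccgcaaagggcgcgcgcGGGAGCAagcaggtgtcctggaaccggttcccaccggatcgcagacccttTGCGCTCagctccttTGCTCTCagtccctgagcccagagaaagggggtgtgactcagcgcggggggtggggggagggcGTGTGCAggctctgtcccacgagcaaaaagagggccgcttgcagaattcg
Gfap: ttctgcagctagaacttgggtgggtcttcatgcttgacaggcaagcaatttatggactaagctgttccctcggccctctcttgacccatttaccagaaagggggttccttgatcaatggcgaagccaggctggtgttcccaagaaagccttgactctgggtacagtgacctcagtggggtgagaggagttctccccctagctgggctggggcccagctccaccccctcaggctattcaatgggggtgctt
Serpina3n: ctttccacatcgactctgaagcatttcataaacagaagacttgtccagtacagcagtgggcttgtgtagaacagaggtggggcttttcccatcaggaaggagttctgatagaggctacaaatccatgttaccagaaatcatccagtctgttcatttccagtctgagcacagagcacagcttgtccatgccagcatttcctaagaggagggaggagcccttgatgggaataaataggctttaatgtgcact
The Mt1 window holds 1 match, which begins 23 bases before the start, and the Mt2 window holds 5, at 223, 178, 128, 113 and 50 bases before it. Counting also the bases just past the start that the table holds, there are 3 matches for Mt1 and 6 for Mt2. That loosened pattern is common: of 32851 RefSeq promoter windows of the same length, 44.41% hold at least 1 match and 15.21% hold 2 or more. Of the 28 members with a window in the table, 15 hold at least 1. The STAT element has no match in the Gfap and Serpina3n windows, but one lies across the annotated start of Gfap, beginning 2 bases before it, in the 30 bases at chr11:102897183-102897212 (minus strand), with the match in capitals.
Gfap start: atgggggtgcTTCCAGGAAgtcaggggcag
Over all windows 7.02% hold a STAT match, and 4 of the 28 members do, namely Acsbg1, Aldoc, Ntsr2 and Steap4. The shares given here were counted in the 250 bases before the start. None was counted with the bases past it, where the Gfap match ends. The matches shown are descriptions of letters and no binding was measured.

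Libraries held between 35114426 and 54421330 counts, of which the 33 members took between 0.475% (KO 1) and 0.62% (KO 2). KO 1 stands apart: mitochondrially encoded genes took 20.6% of its counts against 7.22% to 9.2% in the other 5, and its trimmed-mean (TMM) scaling factor was 0.82 against 0.987 to 1.08. Sex-linked genes matched the labelled sex in all 6 libraries. Adam17 measured 17.1, 17.2 and 15.6 CPM (counts scaled to the library size after TMM) in WT 1, WT 2 and WT F1, and 15.4, 14.6 and 13.9 in KO 1, KO 2 and KO F1. Every KO value of Adam17 lay below every WT value, as for 7.32% of all genes tested. Its log2 fold change was -0.19 (adjusted p = 0.747 by edgeR's quasi-likelihood test with Benjamini-Hochberg adjustment). The deletion is labelled for glutamatergic neurons only, and the part of other cells in these values was not tested. Markers of the labelled nucleus were low and uneven, with Avp (vasopressin) between 5.25 and 38.2 CPM, Oxt (oxytocin) between 4 and 27.6 and Sim1 (its defining transcription factor) between 0.626 and 2.51, while Slc17a7, a transporter gene of cortical neurons, lay between 662 and 1019 CPM.

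The members covered a wide range of levels. On the deposited TPM scale, which is per transcript length and so allows genes to be compared, Apoe, the main lipid carrier that astrocytes secrete, was highest with a mean over the 6 libraries of 2163 (range 1253 to 2860). It was followed by the protease inhibitor gene Cst3 at 1465 (670 to 1785) and by Clu, a secreted chaperone, at 1018 (927 to 1186). Aldoc, a glycolytic aldolase, averaged 618 TPM, Mt1 569, Atp1b2, a sodium pump subunit, 432, and Mt2 204. Of the reactive genes, Gfap at 154 TPM (99.8 to 223) and Serpina3n at 148 (91.8 to 209) ranked 9 and 10 of 33. Below these, Stat3 averaged 36.6, Vim 25.6, Hspb1 19.8 and Cp 15.5 TPM. The 4 lowest members were all reactive genes, Osmr at 3.34, Cd44 at 2.81, Cd109 at 0.783 and Steap4 at 0.696 TPM. In the full order of the 33 members by mean TPM, not all listed here, the ranges of neighbours overlapped with 4 exceptions. These were between Clu and Aldoc, Atp1b2 and Mt2, Cp and Osmr, and Cd44 and Cd109. The plot of CPM by library shows every member in each of the 6 libraries.

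**Figure D1:**
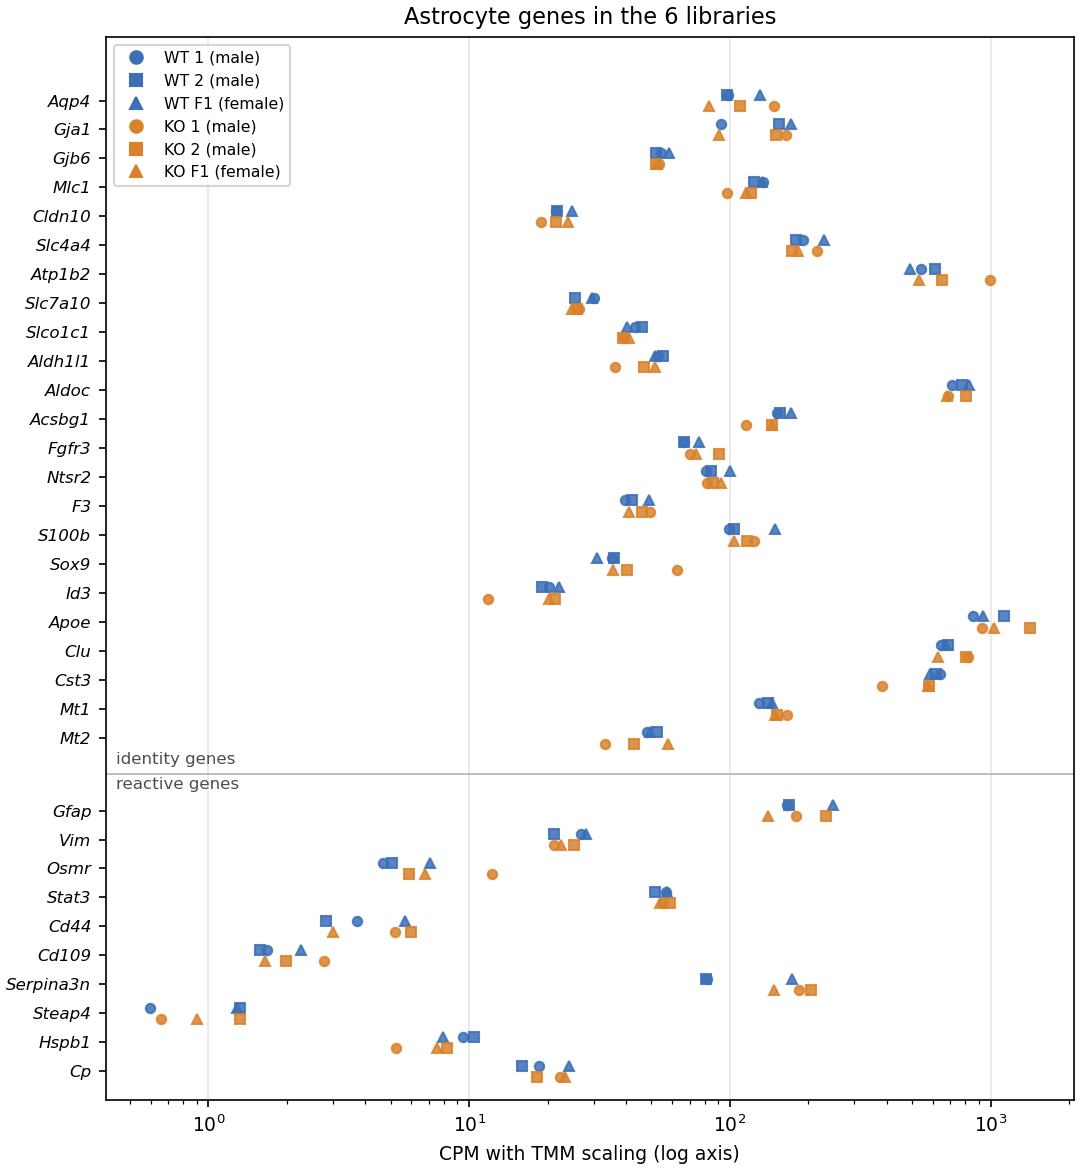
CPM with TMM scaling (log axis) of the 23 identity genes and 10 reactive genes in each of the 6 libraries, blue for WT and orange for KO, with circles and squares for the 2 males and triangles for the female of each genotype. The genotypes overlap for every member but Mt1, Mlc1, Acsbg1 and Cst3.

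The first comparison asked whether astrocyte identity genes differed between KO and WT. None of the 23 passed the adjusted threshold of 0.05, and none had an unadjusted p under 0.05. Over all genes tested, 0.00528% passed the adjusted threshold (1 gene, Noct, no member) and 6.38% had an unadjusted p under 0.05, 3.85% higher and 2.53% lower in KO. Of the identity genes 8 had a log2 fold change above 0 and 15 below, with a median of -0.06 against -0.00 over all genes, and the values ran from -0.27 (Cst3) to 0.42 (Sox9). The smallest adjusted p was 0.735. The 95% intervals reached a median of 0.32 to either side, so smaller differences could not be told from 0 for a typical identity gene.

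Among channel, junction and membrane genes, Aqp4, the water channel of astrocyte endfeet, measured 98.4, 97.7 and 131 CPM in WT 1, WT 2 and WT F1 and 147, 109 and 82.8 in KO 1, KO 2 and KO F1. Its KO values lay on both sides of WT, and its log2 fold change was 0.04 (95% interval -0.52 to 0.60). Gja1, which encodes the main gap junction protein connexin 43, measured 92.6, 154 and 171 CPM in WT and 164, 150 and 90.7 in KO, the low value falling in a male of one genotype and the female of the other. The other astrocyte connexin gene, Gjb6, was nearly level at 51.9 to 58.6 CPM across all 6 libraries. Mlc1, whose product regulates cell volume at endfeet, lay between 124 and 134 CPM in WT and at 97.2, 120 and 115 in KO. All KO values of Mlc1 were below all WT values, with a log2 fold change of -0.23 (-0.50 to 0.04), -0.14 without KO 1. Cldn10, a claudin gene, ranged from 18.9 to 24.8 CPM with overlapping genotypes.

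Of the 4 transporters, Atp1b2 had the largest estimate. It measured 543, 610 and 489 CPM in WT and 989, 650 and 530 in KO, a log2 fold change of 0.38 (-0.05 to 0.81). KO 1 was the highest library and WT F1 the lowest, and the estimate was 0.15 without KO 1 and 0.04 without both. The bicarbonate cotransporter gene Slc4a4 (172 to 229 CPM), the serine and alanine transporter gene Slc7a10 (24.8 to 30.2) and the thyroid hormone transporter gene Slco1c1 (38.8 to 45.9) had log2 fold changes of -0.06, -0.15 and -0.12. Slc7a10 overlaps Lrp3 on the opposite strand over 17.9% of its exon length, and without a stated strand setting their reads cannot be told apart there.

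All 3 metabolic enzyme genes had estimates below 0, under each scaling tried. Aldoc was just above 0 in males alone, without WT F1, without KO F1, and without WT F1 and KO 1 together. Acsbg1, which activates fatty acids, measured 152, 155 and 172 CPM in WT and 115, 145 and 145 in KO. Its KO values all lay below WT, and its log2 fold change was -0.24 (-0.51 to 0.02, adjusted p = 0.735 by edgeR), -0.15 without KO 1 and -0.082 without KO 1 and WT F1. Aldh1l1, a folate enzyme gene and standard astrocyte marker, measured 53.2, 55.4 and 51.4 CPM in WT and 36.2, 46.8 and 51.6 in KO, where only KO 1 was far from WT, and its log2 fold change of -0.26 was -0.12 without KO 1. Aldoc ranged from 679 to 822 CPM with a log2 fold change of -0.09. The 4 genes of receptors and calcium binding overlapped between genotypes: Fgfr3, a growth factor receptor, ranged from 66.6 to 90.9 CPM, the neurotensin receptor gene Ntsr2 from 81.1 to 99.9, F3 (tissue factor) from 39.7 to 49.1 and the calcium-binding protein gene S100b from 99.3 to 148. Their log2 fold changes lay between -0.03 (Ntsr2) and 0.17 (Fgfr3). Fgfr3 overlaps G630022F23Rik on the opposite strand over 13.9% of its exon length.

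Sox9, a transcription factor gene that defines astrocytes, measured 35.3, 36.1 and 30.9 CPM in WT and 62.8, 40.3 and 35.5 in KO. KO 1 was far above the other 5, and the log2 fold change of 0.42 (-0.01 to 0.86) was 0.19 without KO 1 and 0.09 without KO 1 and WT F1. Id3, a transcriptional inhibitor gene, was instead lowest in KO 1, at 11.8 CPM against 19 to 22.1 in the other 5. Among secreted proteins, Apoe ranged from 854 to 1411 CPM and Clu from 627 to 816, with log2 fold changes of 0.21 and 0.15. Cst3 measured 640, 615 and 587 CPM in WT and 384, 579 and 573 in KO. Its KO values all lay below WT, by little in KO 2 and KO F1, and its log2 fold change of -0.27 (-0.67 to 0.14) was -0.08 without KO 1.

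The metallothionein genes lie next to each other. Mt1 measured 130, 140 and 145 CPM in WT and 165, 152 and 148 in KO, with every KO value above every WT value and a log2 fold change of 0.17 (-0.07 to 0.40). Mt2 measured 47.9, 52.3 and 49.3 CPM in WT and 33.1, 43 and 57.6 in KO, so that the KO males were below WT and the KO female was above. Its log2 fold change was -0.19 (-0.60 to 0.22), which overlaps the interval of Mt1, and the difference between these genes was not tested. An antisense gene model, Gm45774, covers 73.5% of its exon length. Mt1 was thus the only identity gene with all KO libraries above WT and Mlc1, Acsbg1 and Cst3 the only ones with all below, against 6.61% and 7.32% of all genes tested. None of these 4 had an unadjusted p under 0.05. The sign of Mt1 was not stable to scaling: with library totals in place of TMM, which moved the median of all genes to -0.17, its estimate was -0.0033, and on log2(TPM + 1) it was -0.12.

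**Figure D2:**
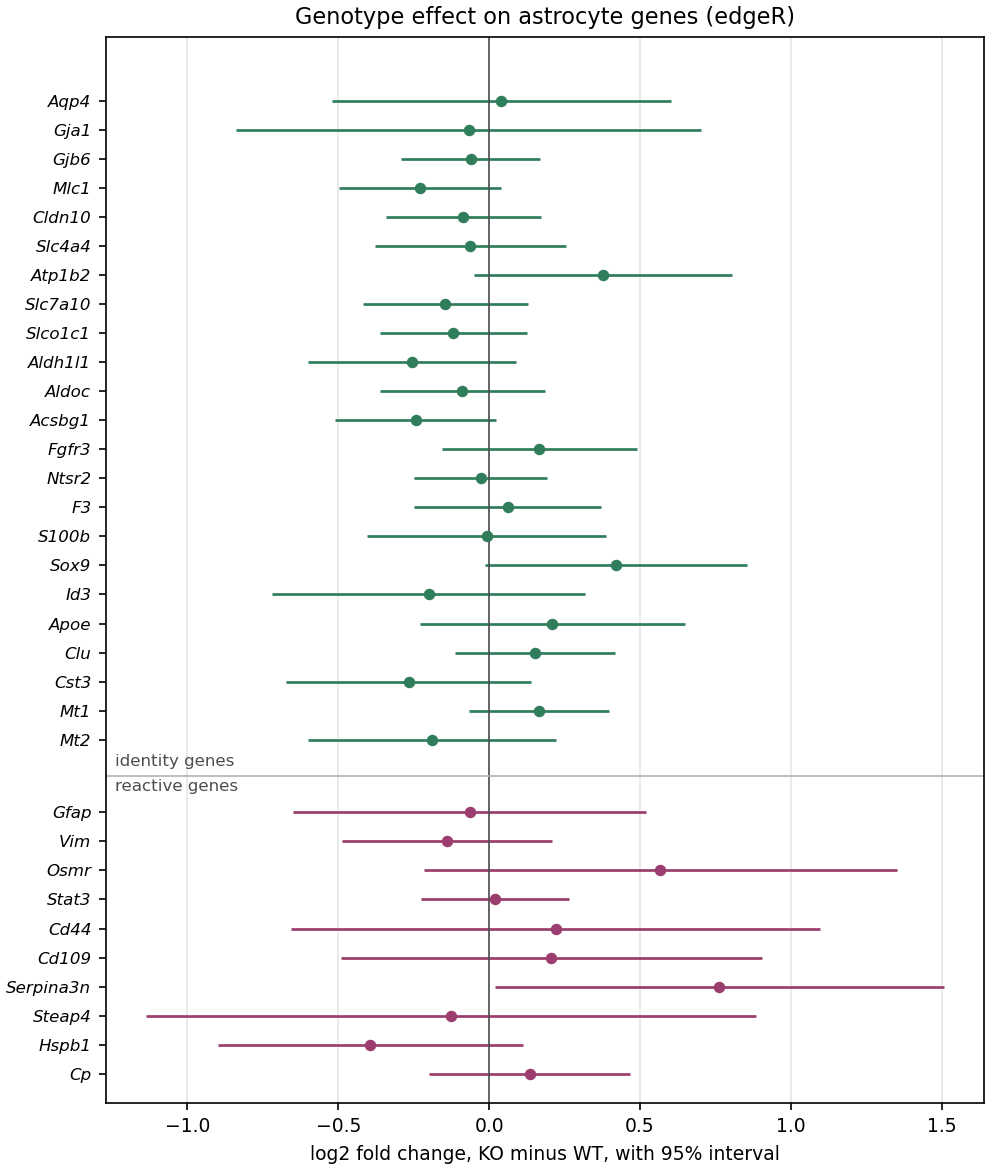
Log2 fold change, KO minus WT, of each member with its 95% interval from edgeR with sex as a term, identity genes in green above and reactive genes in purple below. Every interval crosses 0 except that of Serpina3n, which runs from 0.02 to 1.51.

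The second comparison concerned the reactive genes. None of the 10 passed the adjusted threshold (0.00528% of all genes), and 1, Serpina3n, had an unadjusted p under 0.05 and was higher in KO, against 3.85% of all genes. Their log2 fold changes were above 0 for 6 and below 0 for 4, with a median of 0.08. None of the 10 separated the genotypes without overlap.

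Serpina3n, which encodes a secreted inhibitor of serine proteases, measured 81.6, 81.1 and 174 CPM in WT 1, WT 2 and WT F1 and 183, 204 and 147 in KO 1, KO 2 and KO F1. The 2 male WT libraries lay far below the other 4, while the WT female lay above the KO female. The log2 fold change was 0.76 (SE 0.31, 95% interval 0.02 to 1.51), a fold of 1.70 (1.01 to 2.84), with adjusted p = 0.735 by edgeR. Both male KO values were above both male WT values, and the female KO value was below the female WT value. With sex in the model, a fit that lacks 1 female rests its genotype difference on the males alone, and the log2 fold change was then 1.25, with an adjusted p by edgeR of 0.0499 without WT F1 (0.104% of all genes called there), 0.0549 without KO F1 and 0.0504 in males alone. Over all alternatives the adjusted p ran from 0.0499 to 0.999.

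The filament genes showed no common direction against WT. Gfap measured 165, 169 and 248 CPM in WT and 179, 234 and 140 in KO, so its highest and its lowest value were the 2 females, and its log2 fold change was -0.06 (-0.65 to 0.52). Vim, the gene of vimentin, ranged from 21.1 to 28.1 CPM, with -0.14. The 4 receptor and signalling genes had estimates above 0, but only that of Osmr stayed there under every alternative. Stat3 was below 0 with library totals, on log2(TPM + 1) and without WT 2 or KO 2, Cd44 on log2(TPM + 1) and without WT 2, and Cd109 without KO 1. Osmr, the oncostatin M receptor subunit, measured 4.68, 5.06 and 7.06 CPM in WT and 12.3, 5.86 and 6.74 in KO, a log2 fold change of 0.57 (-0.22 to 1.35) that was 0.12 without KO 1. Stat3 itself ranged only from 51.4 to 58.8 CPM, with 0.02 (-0.23 to 0.27). Cd44, a hyaluronan receptor gene, measured 3.71, 2.83 and 5.67 CPM in WT and 5.18, 5.99 and 3.01 in KO, with 0.22 (-0.66 to 1.10). Cd109, a membrane-anchored protease inhibitor gene, ranged from 1.58 to 2.78 CPM, with 0.21.

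Of the remaining stress and acute-phase genes, Hspb1, a small heat shock protein gene, had the lowest estimate. It measured 9.45, 10.4 and 7.95 CPM in WT and 5.25, 8.22 and 7.55 in KO, a log2 fold change of -0.39 (-0.90 to 0.11), with the lowest value in KO 1, and -0.18 without KO 1. Transcripts of Hspb1 share a run of 630 bases at 95% identity or more with tested pseudogenes, Gm9817 and Hsp25-ps1, so its counts may be split. Cp, the gene of the copper-binding oxidase ceruloplasmin, ranged from 16 to 24.1 CPM and Steap4, a metalloreductase gene, from 0.596 to 1.32, with log2 fold changes of 0.13 and -0.13. The interval for Steap4, from -1.14 to 0.88, was the widest of all members and excluded little.

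Sex was the other labelled difference between libraries. For the female against the male libraries no member passed the adjusted threshold (0.0422% of all genes) and none had an unadjusted p under 0.05 (4.58% of all genes). The estimates were above 0 for 16 of 23 identity genes and 9 of 10 reactive genes, with medians of 0.04 and 0.06, against 49.9% of all genes above 0. The smallest unadjusted p was that of Cp, at 0.0535, with a log2 difference of 0.34. This comparison averages over genotype, and for Gfap and Serpina3n, among others, the female lay above the males in WT and below them in KO.

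The third comparison was the difference of the genotype effect between the sexes, the product term of genotype and sex. No member passed the adjusted threshold by edgeR (0.0739% of all genes, 14 genes). An unadjusted p under 0.05 was found for 6 members, all with a lower KO minus WT difference in females than in males, against 7.42% of all genes in either direction and 3.68% in this one. They were 3 of the 10 reactive genes, Serpina3n, Gfap and Cd44, and 3 of the 23 identity genes, S100b, Aqp4 and Gja1. The term was below 0 for 9 reactive genes, with a median of -0.77, and for 16 identity genes, with a median of -0.16. Over all genes 49.5% were below 0 and the median was 0.01. Only 1 female library stands behind each genotype, so sex and library cannot be told apart, and the fit has 2 residual degrees of freedom.

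For Serpina3n the log2 fold change was 1.25 in males and -0.24 in females, and the term was -1.49 (SE 0.21, 95% interval -2.00 to -0.97, adjusted p = 0.150 by edgeR). It was the only member to pass the threshold with DESeq2 (adjusted p = 5.41e-05), which called 1.37% of all genes with an adjusted p, and it also passed with voom and sample quality weights (adjusted p = 0.0368, 0.222% of all genes). Over all alternatives its adjusted p ran from 5.41e-05 to 0.955 and its value from -1.56 to -1.12. Gfap stood at 0.31 in males and -0.82 in females, a term of -1.13 (-1.80 to -0.47, adjusted p = 0.339 by edgeR). Both male KO values of Gfap were above both male WT values, and the female order was the opposite. Cd44 stood at 0.77 and -0.91, a term of -1.68 (-2.68 to -0.69, adjusted p = 0.341 by edgeR), at levels of 2.83 to 5.99 CPM.

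The 3 identity genes followed the same order. Aqp4 had a log2 fold change of 0.39 in males and -0.66 in females, a term of -1.05 (-1.76 to -0.33, adjusted p = 0.409 by edgeR). S100b measured 99.3 and 103 CPM in male WT, 124 and 116 in male KO, 148 in the WT female and 104 in the KO female. Its term was -0.76 (-1.26 to -0.26, adjusted p = 0.394 by edgeR). Gja1 had a term of -1.26 (-2.29 to -0.23, adjusted p = 0.528 by edgeR), but its male libraries did not separate, since WT 2 at 154 CPM lay among the KO males at 164 and 150. At the other end, Mt2 had the highest term of all members, at 0.62 (-0.09 to 1.33).

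**Figure D3:**
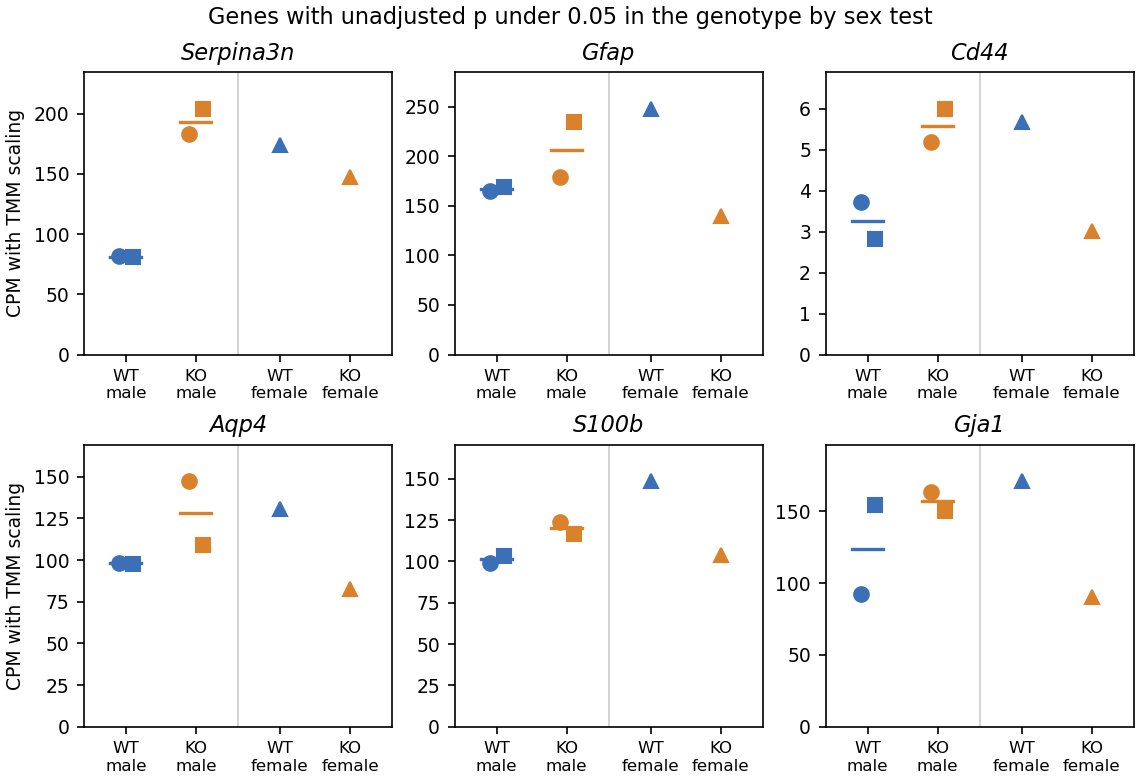
CPM with TMM scaling of Serpina3n, Gfap, Cd44, Aqp4, S100b and Gja1, one panel each with its axis from 0, in male and female libraries of WT (blue) and KO (orange), with bars at the mean of the 2 males. In the females the WT value lies above the KO value in each panel, and in the males the KO mean lies above the WT mean.

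By the order of the libraries alone, 5 of 10 reactive genes had both male KO values above both male WT values together with a female KO value below the female WT value, namely Gfap, Osmr, Cd44, Cd109 and Serpina3n. So did 5 of 23 identity genes, Aqp4, Fgfr3, F3, S100b and Clu. Over all genes tested the share was 10.6%. The fitted genotype difference was above 0 in males and below 0 in females for 8 reactive and 9 identity genes (24.3% of all genes), and in females it was below 0 for all 10 reactive genes. The median over reactive genes was 0.27 in males and -0.28 in females, and over identity genes 0.01 and -0.11. WT F1 was the highest of the 3 WT libraries for 8 reactive and 13 identity genes, against 38.3% of all genes, and KO F1 was the lowest of the 3 KO libraries for 5 and 10, against 31.5%.

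**Figure D4:**
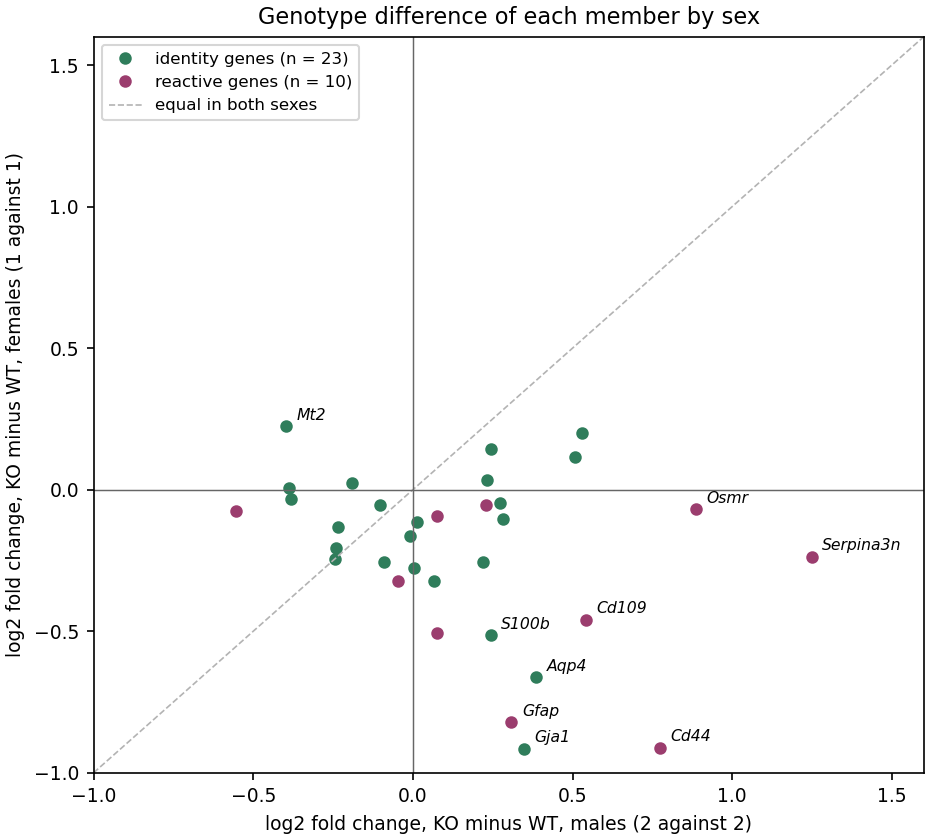
Log2 fold change, KO minus WT, of each member in males (2 against 2, horizontal) and in females (1 against 1, vertical), with a dashed line where both would be equal. The 10 reactive genes (purple) all lie below 0 on the female axis, and 8 of them lie right of 0 on the male axis.

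The pattern depended on the scale. On log2(TPM + 1) the term was below 0 for 4 reactive and 5 identity genes, with medians of -0.04 and 0.17. Only genes with a mean of at least 1 TPM were kept there, which left out the reactive genes Cd109 and Steap4. That scale moved the median KO minus WT difference of all genes to -0.26. On that scale the 6 genes named above stayed below 0, at -1.12 for Serpina3n, -0.77 for Gfap, -0.81 for Cd44, -0.67 for Aqp4, -0.40 for S100b and -0.94 for Gja1. When 1 male library was left out, which leaves 1 residual degree of freedom, calls rose across all genes as well as among the members. Without KO 1, Aqp4, S100b, Gfap and Serpina3n passed the adjusted threshold, with 1.68% of all genes, and without WT 2 Gja1 passed, with 0.818%. Without KO 2, where 7.71% of all genes passed, the members were Aqp4, Slc4a4, S100b, Gfap, Osmr and Serpina3n below 0 and Cst3 and Mt2 above it. Without WT 1 no member passed, with 0.83% of all genes called.

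Libraries differed in other cells and regions too, and the part of these differences in the values above was not tested. The 13 cortex and hippocampus genes summed to 3478 CPM in WT F1 and to between 5191 and 6059 in the other 5. The 8 choroid plexus genes summed to 181 CPM in WT F1, against 344 to 752, and the 8 genes of meningeal fibroblasts to 149.9 CPM, against 85.5 to 140.4. In the list for Bergmann glia and Purkinje cells, Pcp2 measured 21.2 CPM in WT F1, 9.55 in KO 1 and 0.221 to 0.518 in the other 4, Car8 measured 78.1 and 43.6 against 8.74 to 11.3, and Ppp1r17 12.7 and 6.91 against 0.536 to 1.72. Pcp2, Car8 and Ppp1r17, genes of Purkinje cells picked after the values were seen, were thus high in WT F1 and KO 1. Gdf10 and Calb1 of that list are not described singly here. The summed level of the 6 genes of that list, set mostly by Itpr1, lay between 811 and 955 CPM in all libraries. It was 862 CPM in WT F1 and 843 in KO 1, so the sum was not raised in these libraries. The 12 microglia genes were lowest in KO 1, at 341 CPM, against 403 to 453. The 10 endothelial genes summed to between 379 and 450 CPM and the 10 of mature oligodendrocytes to between 3246 and 3933, with no library far from the rest. Other lists did vary: the 10 neuronal genes summed to between 6958 CPM (WT F1) and 10032 (KO 1), and the 8 genes of pericytes and smooth muscle to 329 CPM in WT F1 against 240 to 310. The product term of genotype and sex was below 0 for 8 of 8 pericyte genes (median -0.42, 2 with an unadjusted p under 0.05) and 7 of 8 fibroblast genes (median -0.73, 2 under 0.05). For cortex and hippocampus it was above 0 for 8 of 13 (median 0.32, 4 under 0.05) and for choroid plexus for 7 of 8 (median 0.92, 4 under 0.05). In the list for Bergmann glia and Purkinje cells it was below 0 for 5 of 6 (median -2.99), with 4 of these and the 1 above 0 under 0.05. Of the 12 microglia genes 11 were above 0 (median 0.28, 0 under 0.05). None of these genes passed the adjusted threshold for the term. No gene of these lists was at 0 in all libraries, so no cell type can be called absent.

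Single libraries stood out among the members in different ways. WT F1 was the highest of the 6 for 12 members and the lowest for 2, where over all genes it was highest for 20.0% and lowest for 20.4%. KO F1 was highest for 1 member and lowest for 6 (11.2% and 11.6% of all genes). The summed CPM of the 10 reactive genes was 369, 360 and 555 in WT 1, WT 2 and WT F1 and 487, 564 and 407 in KO 1, KO 2 and KO F1. For the 23 identity genes the sums were 4782, 5261 and 5168 in WT and 5312, 5722 and 4824 in KO. Gfap and Serpina3n carried the reactive sum, with 246.9, 249.9 and 421.3 CPM in WT and 362.5, 438.2 and 287.6 in KO, while the other 8 reactive genes summed to between 109.8 and 133.8 CPM in all 6 libraries. KO 1 was highest for 8 members and lowest for 9, close to its 28.3% and 29.5% over all genes.

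Members in KO 1 differed with exon length. The log2 difference of KO 1 from the mean of the other 5 libraries had a rank correlation with exon length of 0.481 across the 33 members and of 0.219 across 18909 genes, given as a description across genes that share 1 library. In the other 5 libraries the correlation across all genes lay between -0.092 and -0.053, and across the members it was -0.24, -0.382 and 0.164 in WT 1, WT 2 and WT F1 and -0.1 and -0.314 in KO 2 and KO F1. The difference from a mean that holds KO 1 makes these values depend on KO 1 too. The 6 members of 2000 bases or less, S100b, Id3, Cst3, Mt1, Mt2 and Hspb1, had a median difference of -0.61 in KO 1, and the 27 longer ones -0.01, a limit chosen after the values were seen. S100b and Mt1 went against this, at 0.13 and 0.21, while Osmr, Sox9 and Atp1b2 were the highest. Osmr, Sox9, Atp1b2, Cst3 and Hspb1 are among the genes whose KO minus WT estimates leaned on KO 1 above. So are Aldh1l1, Acsbg1 and Mlc1, of 4516, 3604 and 2801 bases, which were low in KO 1, at -0.50, -0.42 and -0.36. The part of the length trend in these estimates was not tested.

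**Figure D5:**
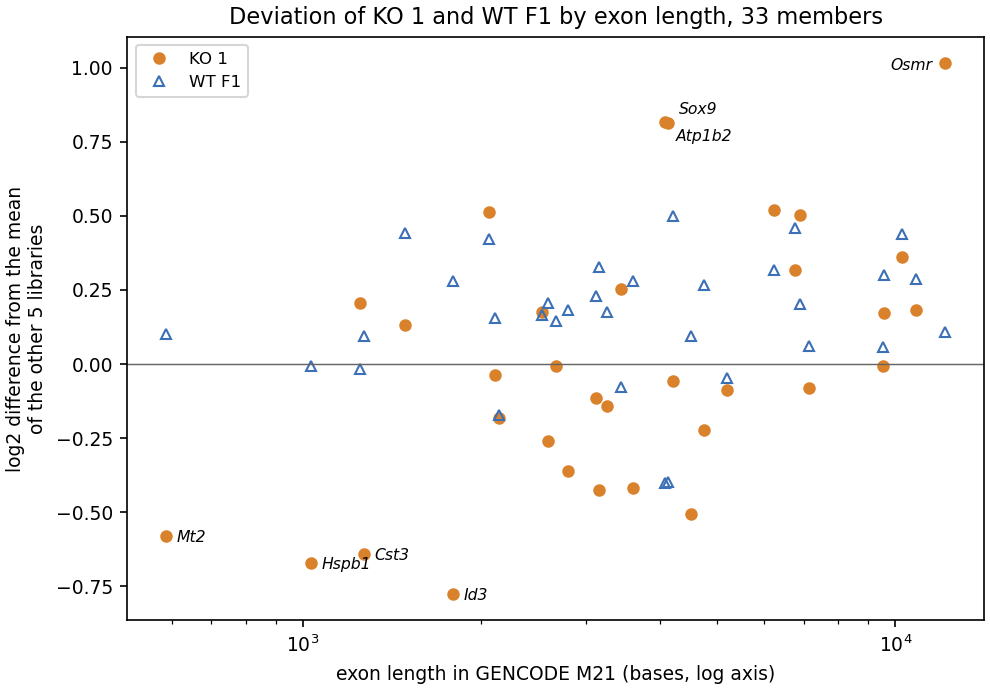
Log2 difference of KO 1 (filled circles) and WT F1 (open triangles) from the mean of the other 5 libraries against exon length (bases, log axis) for the 33 members. Mt2, Hspb1, Cst3 and Id3 are the lowest in KO 1, and Osmr, Sox9 and Atp1b2 the highest.

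Other astrocyte genes outside the 33 were read from a list of 20, all tested. None passed the threshold in KO against WT, 9 had estimates above 0 and 11 below, and the median was -0.06. Unadjusted p values under 0.05 belonged to Nfia, a gliogenic transcription factor gene, at 0.93, Gpr37l1, an orphan receptor gene, at -0.32, and Agt, the gene of angiotensinogen, at -0.47. Agt, which astrocytes make as the precursor of angiotensin II, measured 71.9, 64.3 and 157 CPM in WT and 62.6, 59 and 74.8 in KO. Its WT female stood far above the other 5 libraries. The glutamate transporter genes Slc1a2 and Slc1a3 had log2 fold changes of 0.26 (-0.04 to 0.55) and 0.20 (-0.08 to 0.47), glutamine synthetase (Glul) 0.06 and the potassium channel gene Kcnj10 -0.06. The product term with sex was below 0 for 15 of the 20, with a median of -0.26, and had an unadjusted p under 0.05 for Slc14a1 (-1.17), Agt (-0.91) and Fabp7 (-0.87), none past the adjusted threshold.

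A further list of 28 genes induced in reactive astrocytes had 26 tested, none past the threshold. Their KO minus WT estimates were above 0 for 7 and below for 19, with a median of -0.08, opposite in sign to the median of 0.08 of the 10 reactive members. Ptgs2, the cyclooxygenase-2 gene that neurons also express, had the smallest p, at 0.69 (0.32 to 1.06, adjusted p = 0.735 by edgeR), followed by the MHC class I gene H2-D1 at -0.26. Their product term with sex was below 0 for 14 of 26, with a median of -0.02, where 9 of the 10 reactive members were below 0.

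Of 15 genes of the interleukin-6 family and its JAK and STAT3 pathway, 13 were tested and none passed. Il6 and Osm, which encode ligands, were below the filter, with at most 0.259 and 0.283 CPM. Lif, another ligand gene, and Bcl3, a target gene, had the smallest p values, with estimates of -0.55 (-1.20 to 0.11) and 0.47 (-0.10 to 1.03). Socs3, the feedback inhibitor that STAT3 induces, lay between 2.63 and 3.64 CPM with a log2 fold change of 0.19. The shared receptor subunit gene Il6st ranged from 58.1 to 83.6 CPM. For telencephalic region factors, Emx2 had an estimate of 0.46 (0.13 to 0.78, adjusted p = 0.735 by edgeR) and Lhx2 of 0.30, among 4 tested.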

How the data were processed

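Messenger RNA libraries of 6 mouse tissue samples, 3 WT and 3 KO, were compared. RNA was isolated with Trizol chemistry and turned into mRNA-seq libraries, per the labels' protocols. The submitters' processing notes name FastQC 0.11.2, Trimmomatic 0.36 and bedtools 2.26.0. Aligner, counting tool, strand setting and build: not given in the sources used here.

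Per the file headers, the authors deposited counts, TPM and FPKM for 51826 genes per library. Tests used the deposited counts as they stand, levels between genes and 1 alternative used the deposited TPM, and the deposited FPKM were left aside. All per-sample columns could be assigned (0 left). Of the gene identifiers 99.63% matched GENCODE M21 (GRCm38), and 31 of the 33 members had the same coordinates there. Promoters came from RefSeq's tables for GRCm38.p6. Similar transcripts were sought with blastn 2.17.0 (at least 95% identity over 100 bases).

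Genes were kept with filterByExpr by genotype and scaled by TMM. Robust quasi-likelihood tests of edgeR 4.0.16 (R 4.3.3), with genotype and sex as terms and Benjamini-Hochberg adjustment over all 18956 genes at 0.05, gave the genotype and sex differences, and a fit with the product of genotype and sex gave its term. Intervals are 95% intervals from the SE and the t quantile, and cover the spread between libraries. Depth was between 35114426 and 54421330 counts per library, so 3 counts correspond to between 0.055 and 0.085 CPM. The scripts were tested on simulated data.

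All members are named by role. From each list of other genes, up to 2 with the smallest p are named, since none passed the threshold, and Agt, Slc1a2, Slc1a3, Glul and Kcnj10 always. Cell type markers, Slc14a1, Fabp7, Socs3, Il6st and ligand genes were named after their values were seen. The members and lists were chosen with earlier results of these data known. Alternatives were DESeq2 1.42.0, voom and limma-trend (limma 3.58.1), other scalings and filters, other terms, and leaving out libraries.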

Additional observations from a re-analysis of the deposited data

How the results depend on the processing

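Each member kept its side of the threshold in KO against WT under every alternative except Serpina3n without WT F1. Genes past the threshold in KO against WT numbered 1, and 4 with no filter on low counts, 74 with DESeq2, 4 with voom, 4 on log2(TPM + 1), 3 with genotype only, 18 in males only, 27 without WT F1 and KO 1, and 0 to 20 with each library left out. With the replicate block they numbered 0. Same-numbered libraries of the genotypes correlated at -0.05, 0.01 and 0.02, and the other pairs at -0.07 to 0.08. With so few libraries this cannot decide whether same-numbered ones were handled together, which the labels do not say. For the sex difference 8 became 52 with DESeq2. For the product term 14 became 1 with library totals, 36 with no filter, 240 with DESeq2, 42 with voom, 26 on log2(TPM + 1) and 159 to 1493 with a male library left out, and without either female it cannot be estimated. Reactive genes past the threshold for this term numbered 1 (Serpina3n) with DESeq2 and with voom and 0 to 3 with a male left out, and identity genes 0 to 5.

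The median KO minus WT difference of identity genes was -0.24 with library totals (4 above 0), -0.33 on log2(TPM + 1) (2 above 0), 0.014 in males only (13 above 0), 0.0075 without WT F1 and KO 1 (13 above 0) and -0.084 to 0.014 with each library left out (6 to 13 above 0). For reactive genes it was -0.29 on log2(TPM + 1) (2 above 0), where Cd109 and Steap4 were not kept. It was 0.27 in males only and -0.0044 to 0.27 with each library left out, with 0 to 1 past the threshold. The product term of identity genes had a median of -0.012 with library totals, 0.17 on log2(TPM + 1) (5 below 0) and -0.25 to -0.16 with a male left out. That of reactive genes was -0.038 on log2(TPM + 1) (4 below 0), again without Cd109 and Steap4, and -0.98 to -0.57 with a male left out.

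Signs of single KO minus WT estimates turned with library totals (Aqp4 -0.14, F3 -0.11, Clu -0.014, Mt1 -0.0033, Stat3 -0.14, Cp -0.040). On log2(TPM + 1) they turned for Aqp4 (-0.26), Fgfr3 (-0.28), F3 (-0.23), Apoe (-0.12), Clu (-0.018), Mt1 (-0.12), Stat3 (-0.22), Cd44 (-0.18) and Cp (-0.42). In males only they turned for Gja1 (0.35), Slc4a4 (0.067), Aldoc (0.0045), Ntsr2 (0.014), S100b (0.24), Gfap (0.31) and Steap4 (0.075). With voom they turned for Gja1 (0.066), Ntsr2 (0.00058), S100b (0.041), Gfap (0.12) and Steap4 (0.20). Without WT F1 and KO 1 they turned for Aqp4 (-0.029), Cldn10 (0.070), Aldoc (0.0017), Ntsr2 (0.10), S100b (0.12), Id3 (0.090), Mt2 (0.0075), Gfap (0.17) and Steap4 (0.23). With each library left out the ranges crossed 0 for Aldoc (-0.18 to 0.0044), Aqp4 (-0.18 to 0.39), Cd109 (-0.026 to 0.54), Cd44 (-0.074 to 0.77), F3 (-0.011 to 0.22), Gfap (-0.28 to 0.31), Gja1 (-0.39 to 0.35), Id3 (-0.46 to 0.019), Ntsr2 (-0.060 to 0.014), S100b (-0.10 to 0.24), Slc4a4 (-0.19 to 0.067), Stat3 (-0.036 to 0.076) and Steap4 (-0.52 to 0.17).

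For the product term, Acsbg1 turned to 0.0027 with DESeq2 size factors, 0.0026 with the DESeq2 test, 0.0043 with voom and 0.13 with library totals, where Ntsr2 and Apoe also turned, to 0.020 and 0.022. On log2(TPM + 1) it turned for Gjb6 (0.29), Slc4a4 (0.018), Atp1b2 (0.020), Slc7a10 (0.17), Aldoc (0.095), Acsbg1 (0.36), Fgfr3 (0.089), Ntsr2 (0.24), Sox9 (0.053), Apoe (0.33), Mt1 (0.15), Vim (0.12), Stat3 (0.20) and Cp (0.32). With a male left out the ranges crossed 0 for Acsbg1 (-0.16 to 0.18), Apoe (-0.37 to 0.23), Cldn10 (-0.040 to 0.15), Id3 (-0.26 to 0.60), Mlc1 (-0.11 to 0.20), Sox9 (-0.61 to 0.027) and Steap4 (-1.26 to 0.024). The cause of these turns was not tested. At 19 counts and more per library, depth limits mainly Steap4 and Cd109.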
